A study of Mus musculus with 2 samples.

Results

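Immature olfactory sensory neurons are the stage that follows the neuronal precursor in the olfactory epithelium, and 10 genes known to mark them were examined for where they lie between the chromosome domain boundaries of the precursors. The genes were taken by name from a list of immature neuron markers, and all 10 were matched in GENCODE M21, of 21755 protein-coding genes on the 19 autosomes and chromosome X. They are Gap43, Stmn1, Stmn2, Dcx, Tubb3, Gng8, Cd24a, Atf5, Crmp1 and Dpysl3. The boundaries come from in situ Hi-C with DpnII, an assay that joins neighbouring DNA ends inside fixed nuclei and reads which sequences were in contact. The primary cells, immediate neuronal precursors from olfactory epithelium, were untreated and were sorted from pups of strain FVB/NTac, males and females together. The protocol names Ngn1-GFP mice and gating plots drawn for immature olfactory sensory neurons, the stage these genes mark. The single group had 2 biological replicates, with 2200000 cells in the first and 2100000 in the second, crosslinked in 1% formaldehyde. The authors pooled the contacts of both before calling boundaries. No value below therefore carries an error between replicates, the depth is unknown, and conditions could not be compared. No expression was measured here, so neither the identity of the sorted cells nor the activity of the 10 genes could be checked.

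A domain boundary is a position across which few contacts form, and the stretch between neighbouring boundaries is a domain, within which enhancers and promoters meet more often. The list holds 7841 boundaries of 5 kb, each with a score from the authors, where a higher score marks stronger insulation, and a class that is weak from a score of 0.2 and strong from 0.5. Most of the 10 genes act on the cytoskeleton of growing neurons. Gap43 encodes a phosphoprotein of the growth cone. Stmn1 and Stmn2 encode stathmins, which bind tubulin and destabilise microtubules. Dcx encodes a microtubule-binding protein of migrating neurons and Tubb3 the neuronal beta tubulin, while Crmp1 and Dpysl3 encode collapsin response mediators, which link guidance signals to the cytoskeleton. Gng8 encodes a G protein gamma subunit of immature olfactory and vomeronasal neurons, Cd24a a lipid-anchored surface glycoprotein, and Atf5 a transcription factor needed for olfactory neurons to mature.

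Stmn2, Atf5 and Cd24a started close to a domain boundary, and the other 7 genes farther inside their domains. The transcription start site (TSS, the 5′ end of the gene model) lay within 10 kb of a boundary interval for 3 of the 10 genes, against 16.4% of all protein-coding genes. The median distance to the nearest boundary was 35.8 kb, against 55.3 kb for all protein-coding genes (quartiles 21.4 and 102 kb). Stmn2 was the closest at 0.641 kb, followed by Atf5 at 1.66 kb, Cd24a at 8.28 kb, Tubb3 at 18.6 kb and Gng8 at 28.2 kb. Dpysl3 (43.3 kb), Crmp1 (53.1 kb), Stmn1 (61.7 kb) and Dcx (76.7 kb) lay farther off, and Gap43 was the most distant at 170.7 kb. Of all protein-coding genes, 89.9% had a boundary as close as or closer than Gap43 did, and 6.30% one as close as or closer than Stmn2. No member had its TSS inside a boundary interval, where 5.07% of protein-coding genes did. An annotated transcript start of Dpysl3 other than its TSS did lie in one. The distances of Stmn2 and Atf5 were shorter than the 5 kb of an interval, and a boundary placed 5 kb nearer would hold their TSS.

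**Figure D1:**
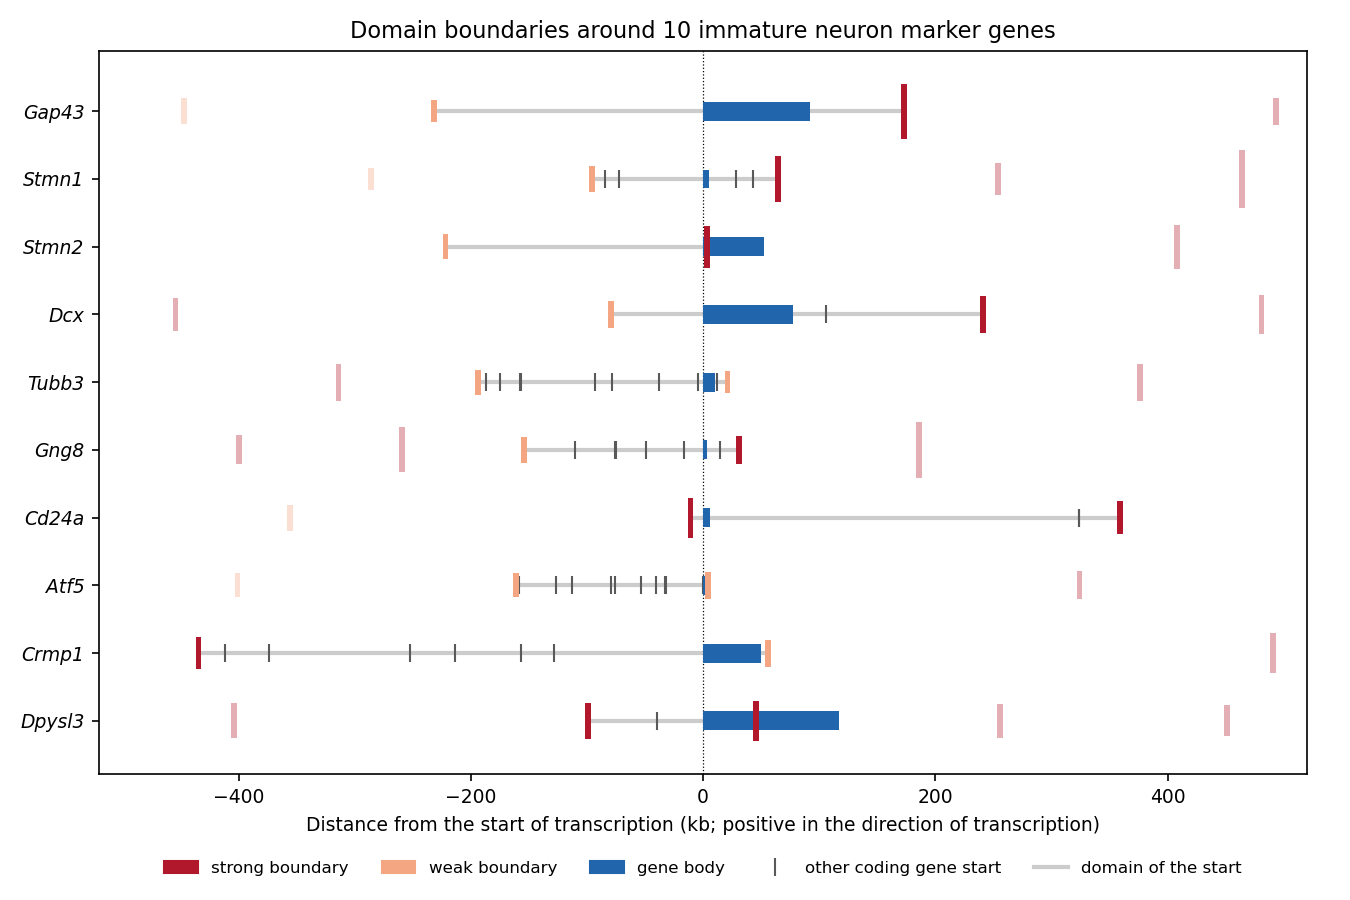
Map of boundaries around the 10 genes, each row aligned at the TSS and turned so that transcription runs to the right (x axis, kb). Bars are boundary intervals, coloured by class, taller with a higher score and pale where they do not flank the TSS; blue blocks are gene bodies, ticks are other protein-coding gene starts and the grey line is the domain. The boundaries at Stmn2, Atf5 and Dpysl3 fall on the gene bodies, and Gap43 stands far from both of its boundaries.

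The nearest boundary lay downstream of the TSS, in the direction of transcription, for 8 of the 10 genes, against 48.3% of protein-coding genes with a domain. Dcx and Cd24a were the genes with the nearest boundary upstream. The stronger of the flanking boundaries was downstream for 7 of the 10, against 48.9%. A TSS in the first or last 20% of its domain was found for 6 of the 10, namely Stmn2, Tubb3, Gng8, Cd24a, Atf5 and Crmp1, against 44.9%. A boundary overlapped the body of 3 members, Stmn2, Atf5 and Dpysl3, against 17.7% of protein-coding genes. The members were longer genes, with a median of 30.4 kb against 17.4 kb, and the part of length in this share was not tested. The 3′ end lay within 10 kb of a boundary for Tubb3, Atf5 and Crmp1, again 3 of 10, against 13.3%. With 10 genes, each of them makes up 10 percentage points of such a share, and these shares are descriptions without a test.

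The stathmin genes differed in how their boundary falls. Stmn2 (chromosome 3, GRCm38, 8509360 to 8561606, plus strand) had a strong boundary (8510001 to 8515000, score 1.24) that began 0.641 kb past its start and lay in an intron. By the TSS, Stmn2 therefore belonged to the domain upstream, which was 220 kb long, held no other protein-coding gene start and opened with a weak boundary (8285001 to 8290000, score 0.407). Only 1.23% of the gene body lay in that domain, and 46.6 of its 52.2 kb lay beyond the boundary interval, in the next domain. That domain was 400 kb long and ended at another strong boundary (score 1.35). It held the start of Hey1, 157.9 kb from the Stmn2 start. Hey1 encodes a transcriptional repressor that acts downstream of Notch. Of 4 annotated transcript starts of Stmn2, 3 lay between 0.415 and 0.641 kb from the boundary and the other lay 45.3 kb past it. The 0.641 kb is shorter than the 5 kb of an interval. The domain given to the Stmn2 TSS, and the share of the gene body there, therefore depend on where the boundary in its intron was placed. Stmn1 (chromosome 4, 134468320 to 134473843, plus strand) lay whole in a domain of 155 kb with 5 protein-coding gene starts. Its weak upstream boundary (134370001 to 134375000, score 0.402) was 93.3 kb away and overlapped exons of Extl1. The strong downstream boundary (134530001 to 134535000, score 1.45) was 61.7 kb away and overlapped exons of Mtfr1l. The starts of Paqr7, a progestin receptor gene, and Aunip were 28.4 and 42.7 kb downstream, and those of Pafah2 and Extl1 were 72.0 and 84.5 kb upstream.

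Gap43 and Dcx started farthest from their nearest boundary of the 10 genes, at 170.7 and 76.7 kb. Gap43 (chromosome 16, 42248442 to 42340651, minus strand) was the only protein-coding gene start in a domain of 400 kb, which contained all 92.2 kb of it. Its downstream boundary (42165001 to 42170000) had the highest score next to any member, 1.89, above 97.8% of the list or level with it, and overlapped an exon of Lsamp, an adhesion molecule gene. The upstream one (42570001 to 42575000) scored 0.244, at or above 11.7% of the list. Beyond the strong boundary the next domain, of 315 kb, held no protein-coding gene start. Dcx (chromosome X, 143855842 to 143933311, minus strand) shared a domain of 315 kb with Capn6, a calpain family gene, whose start was 105.9 kb downstream. Its upstream boundary (144010001 to 144015000, score 0.490) was weak and intergenic. The downstream one (143690001 to 143695000, score 0.953) was strong and overlapped exons of the kinase gene Pak3, 238.3 kb from the Dcx start. Intergenic here means outside protein-coding genes.

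Both collapsin response mediator genes had a boundary close to or within the gene. Crmp1 (chromosome 5, 37241940 to 37292133, plus strand) had the longest domain of the 10, 485 kb, with 7 protein-coding gene starts. The nearest of the others were those of gene models named Jakmip1, 128.2 and 213.6 kb upstream, and Gm1043 between them, followed by Wfs1 at 252.7 kb. Its downstream boundary (37295001 to 37300000, score 0.498) began 2.87 kb past the 3′ end of the gene and overlapped exons of Evc, a gene of primary cilia. It was weak, just under the limit of the strong class. The upstream boundary (36805001 to 36810000, score 0.767) was strong. Of 10 annotated Crmp1 transcript starts the closest to a boundary was at 11.1 kb. Dpysl3 (chromosome 18, 43320984 to 43438286, minus strand) is the longest of the 10 genes at 117.3 kb, and had the shortest domain, 140 kb, with strong boundaries on both sides (scores 0.929 and 1.14). The downstream boundary (43390001 to 43395000) lay inside the gene, 43.3 kb from the TSS, so that 36.9% of the gene body was in the domain of the TSS and 69.0 kb lay beyond the boundary interval. One of its 6 annotated transcript starts, that of a shorter transcript, lay inside this interval. Eif3j2, a translation factor gene, was the other gene starting in the domain, 39.5 kb upstream.

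Tubb3, Gng8 and Atf5 shared their domains with 6 to 11 other protein-coding gene starts, as Crmp1 did with 6, and Atf5 alone exceeded the upper quartile of all genes (11 starts, the gene itself included). Tubb3 (chromosome 8, 123411424 to 123422015, plus strand) shared 210 kb with 9 other protein-coding gene starts. Mc1r, the melanocortin receptor gene, started 4.32 kb upstream of it, Def8 12.1 kb downstream, Tcf25 37.7 kb and Spire2, an actin nucleation gene, 78.7 kb upstream. Both of its boundaries were weak, at 123215001 to 123220000 (score 0.409) and 123430001 to 123435000 (score 0.220). The latter lay in introns of Def8 and of the long gene model Gm20388, 7.99 kb past the end of Tubb3, and had the lowest score next to any member. Gng8 (chromosome 7, 16891786 to 16895436, plus strand) shared 180 kb with 6 other starts, the nearest being those of the prostacyclin receptor gene Ptgir (14.7 kb downstream) and of Dact3 (16.5 kb upstream). Its boundaries held gene starts themselves. The weak upstream one (16735001 to 16740000, score 0.435) held that of Ap2s1, which encodes a clathrin adaptor subunit, and the strong downstream one (16920001 to 16925000, score 0.534) that of the calmodulin gene Calm3. Atf5 (chromosome 7, 44812256 to 44816658, minus strand) had 11 other starts in 160 kb, the most of the 10 genes. Il4i1 and Nup62, a nuclear pore gene, started 0.271 and 0.570 kb from the Atf5 start, within the Atf5 gene and on the opposite strand, and Akt1s1 and Tbc1d17 32.3 and 32.4 kb upstream. The downstream boundary (44810001 to 44815000, score 0.490) covered the 3′ part of Atf5, 2.75 of its 4.40 kb, coding exons and untranslated sequence included. The upstream one (44975001 to 44980000, score 0.353) overlapped exons of Prmt1, and both were weak.

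Cd24a (chromosome 10, 43578284 to 43584265, plus strand) was the member with a strong boundary just upstream. This boundary (43565001 to 43570000, score 1.13) was intergenic and ended 8.28 kb before the start, and the other (43935001 to 43940000, score 0.809) overlapped a coding exon of Rtn4ip1, 356.7 kb away. Between them lay 365 kb with 3 protein-coding gene starts, the others being those of Qrsl1 and Rtn4ip1, both 323.5 kb from that of Cd24a and nearer the far boundary. Counting genes of every type, 12 started in this domain. Across the near boundary the closest protein-coding start was that of 1700021F05Rik, 37.3 kb from Cd24a.

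Of the 20 boundaries flanking the 10 genes, 10 were strong and 10 weak. Among the flanking sides of all protein-coding genes with a domain 62.6% were strong, and in the whole list, where each boundary counts once, 52.8%. The median score of the 20 was 0.516, against 0.533 in the whole list, where again each boundary counts once. Counted by gene, the nearest boundary had a median score of 0.834 for the members, against 0.650 for all protein-coding genes. Strong boundaries stood on both sides of 2 members, Cd24a and Dpysl3, against 38.2% of protein-coding genes with a domain. The sides were unlike, strong and weak, for 6 members, against 48.8%, and both weak for Tubb3 and Atf5, against 13.0%. In the group with unlike sides the strong side was downstream for Gap43, Stmn1, Stmn2, Dcx and Gng8 and upstream for Crmp1. The weak boundaries of Dcx, Atf5 and Crmp1 scored 0.490, 0.490 and 0.498, just under the limit of the strong class, and the strong one of Gng8 scored 0.534, just above it. With a limit of 0.4 on both sides, chosen after these values were seen, 7 members qualified, against 52.3%. The 20 intervals held 7 to 22 DpnII sites (median 13, against 12 for all boundaries). Between 9.80 and 71.4% of their letters were masked as repeats, most at the upstream boundary of Dcx, with a median of 22.9%, against 26.3%. The part of site number or repeats in the scores was not tested.

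**Figure D2:**
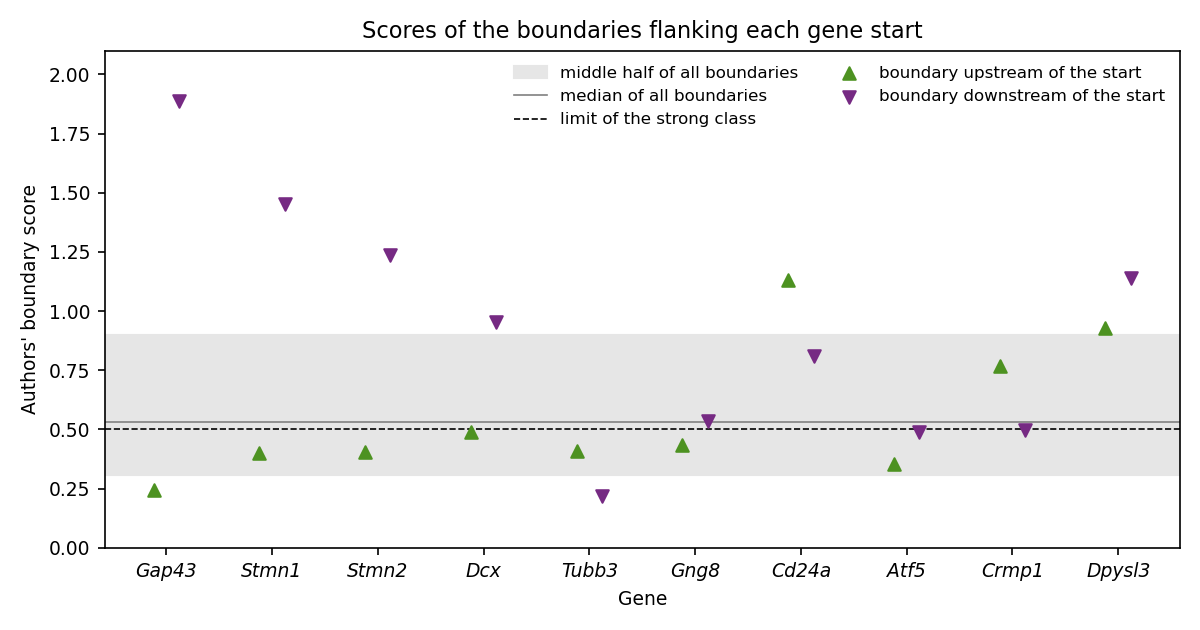
Authors' boundary score (y axis, no unit) for the boundary upstream and downstream of each TSS. The grey band and line are the quartiles and median of all 7841 boundaries, and the dashed line is the limit of the strong class at 0.5; the downstream boundary of Gap43 reaches 1.89 and that of Tubb3 lies lowest at 0.220.

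Domains of the 10 genes were somewhat shorter and held fewer genes at the median than those of all genes. The median length was 215 kb, with a range of 140 to 485 kb, against 275 kb for 20428 protein-coding genes with a domain (quartiles 195 and 395 kb). The median number of protein-coding gene starts, the member included, was 4, against 6 (quartiles 3 and 11). Gap43 and Stmn2 were the only protein-coding starts of their domains, 2 of 10, against 9.55% of genes, and Tubb3 and Atf5 shared theirs with at least 9 others, 2 of 10, against 29.2%. Relative to length the members ran from 0.25 starts per 100 kb at Gap43 to 7.5 at Atf5, with a median of 1.44, against 2.09. Between strong boundaries alone the domains were 140 to 1405 kb long, and that of Atf5 then spanned 58 protein-coding starts, that of Gap43 2. No value for all genes is given beside these.

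**Figure D3:**
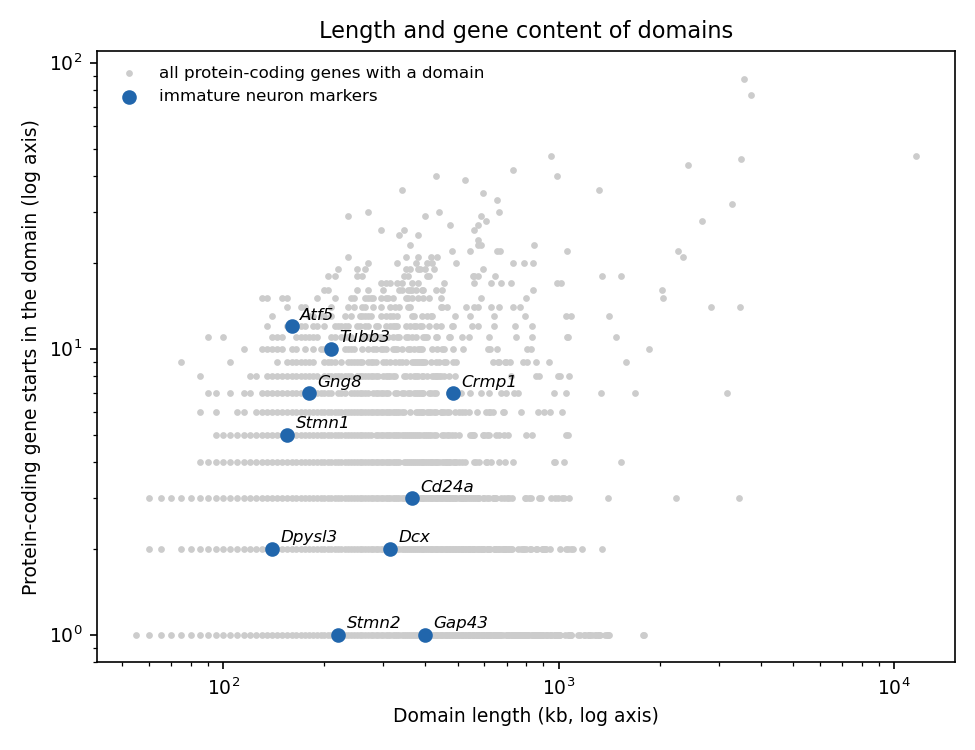
Domain length (x axis, kb, log scale) against the number of protein-coding gene starts in the domain (y axis, log scale). Grey points are combinations found among 20428 genes and blue points are the 10 markers, which run from 1 start in 400 kb at Gap43 to 12 starts in 160 kb at Atf5.

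Sequence matches to the CTCF consensus were found at a flanking boundary of 9 of the 10 genes, against 47.8% of protein-coding genes with a domain. CTCF is the zinc finger protein that halts cohesin at many vertebrate domain borders, and its motif has a direction. Exact matches of 12 letters were searched on both strands of each boundary interval and of the 10 kb to its left and right. Such stretches held one at 26.0% of all boundaries and in 11.0% of all 25 kb windows of the genome, and at 10 of the 20 flanking boundaries, 5 of them strong and 5 weak. Stmn1 had none. Tubb3 alone, 1 of the 10, had a match at both of its boundaries, about the share of all genes (9.95%). There the matches pointed toward each other, into the domain. These matches lay outside the intervals, 5.92 kb from the upstream boundary and 7.38 kb from the downstream one, and both boundaries were weak. Of 13 matches, 7 pointed into the domain of the member and 6 out of it. No share over all genes is given for the direction of matches or for facing pairs. A match is a description of letters, and binding was not measured here. The sites shown are those inside a boundary interval of Gap43, Stmn2, Crmp1 and Atf5, with the nearer of those beside it at Crmp1, the site between the near boundary and the start of Cd24a, and the facing pair of Tubb3, as 30 bases of GRCm38.p6 with the match in capitals, 5′ to 3′ on the strand of the match.
Gap43, downstream boundary, chr16:42165114-42165143, minus strand: catctctgtCCACCAGGTGGCaacagtgag
Stmn2, downstream boundary, chr3:8513859-8513888, plus strand: cttttcacaCCACTAGAGGGCaatcaatgt
Crmp1, downstream boundary, chr5:37298510-37298539, plus strand: acatctgagCCACCAGAGGGCactgtggac
Crmp1, downstream boundary, chr5:37291160-37291189, minus strand: ttggagcggCCACCAGGGGGCgccacaatg
Atf5, upstream boundary, chr7:44975760-44975789, minus strand: gcctgcacaCCAGCAGAGGGCatcagatcc
Cd24a, upstream boundary, chr10:43575090-43575119, plus strand: tccatgtggCCAGCAGAGGGCagcacatcc
Tubb3, upstream boundary, chr8:123225914-123225943, plus strand: gtcgggaagCCAGCAGGGGGCtggtggaat
Tubb3, downstream boundary, chr8:123422613-123422642, minus strand: gggaaaccaCCACTAGGGGGCacatggagc

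In Stmn2 the match lay 4.51 kb past the TSS, inside the boundary interval and the intron, and read in the direction of transcription, away from the domain of the TSS. The match of Cd24a lay 3.17 kb before the TSS and 5.10 kb past the edge of the boundary interval, and pointed toward the gene. That of Gap43 fell inside the boundary with the highest score of the set and pointed away from Gap43. Crmp1 had 3 matches around its downstream boundary, of which those inside and 5.55 kb before it pointed out of the domain and that 3.83 kb before it pointed in. The interval inside Dpysl3 also held a match, which is not shown. Within the bare intervals 5 of the 10 genes had a match, against 14.2%, and such a match was in 6.90% of all boundary intervals and in 2.40% of all 5 kb windows.

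RefSeq promoter sequences (250 bases before to 50 after a start, GRCm38.p6) were matched for 5 members, namely Dcx, Tubb3, Gng8, Atf5 and Crmp1. Atf5, whose start adjoins a boundary and other gene starts, is shown with each CG dinucleotide in capitals. So is Dcx, whose start lay 76.7 kb from a boundary and 105.9 kb from the other protein-coding start of its domain. Each has 2 listed promoters, and the one nearest the TSS was taken, 0 bases from it for Atf5 and 92 bases for Dcx.
Atf5, chr7:44816609-44816908, minus strand: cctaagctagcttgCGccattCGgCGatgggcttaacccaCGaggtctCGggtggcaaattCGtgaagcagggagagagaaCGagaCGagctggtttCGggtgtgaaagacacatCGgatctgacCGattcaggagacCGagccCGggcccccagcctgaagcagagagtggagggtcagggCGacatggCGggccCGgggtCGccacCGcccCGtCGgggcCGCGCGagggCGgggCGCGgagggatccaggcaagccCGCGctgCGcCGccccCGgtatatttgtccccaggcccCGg
Dcx, chrX:143933170-143933469, minus strand: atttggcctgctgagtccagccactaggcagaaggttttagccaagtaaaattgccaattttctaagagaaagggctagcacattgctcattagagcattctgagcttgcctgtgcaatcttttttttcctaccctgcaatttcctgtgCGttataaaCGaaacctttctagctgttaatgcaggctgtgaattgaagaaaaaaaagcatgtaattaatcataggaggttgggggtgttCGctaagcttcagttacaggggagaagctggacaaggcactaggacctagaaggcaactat

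The Atf5 promoter held 32 CG dinucleotides and 68.0% G and C, and that of Dcx 3 and 43.0%. Crmp1 had 41 CG and 77.0% G and C, Tubb3 26 and 67.3%, and Gng8 8 and 58.0%. Over all 32851 listed promoters the median was 7 CG and 52.7%. The E-box letters CAGCTG and CAGATG, searched on both strands, were in none of the 5, against 16.3 and 17.2% of all promoters, and TATAAA was in that of Dcx, against 13.6%. That these letters are absent from a window says nothing of the factors that bind them.

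Relatives of the members in the same gene families were placed differently from one gene to the next. Counts within 10 kb were made by the TSS and are to be read against 16.4% of all protein-coding genes. Near that share 0 of 4, 5 or 8 genes is no result. Counts with strong boundaries on both sides are to be read against 38.2%. Of the 4 stathmin genes, Stmn2 was the only one within 10 kb of a boundary, with Stmn4 at 35.7 kb and Stmn3 at 50.5 kb. None of the 5 collapsin response mediator genes was, and 4 of them (Dpysl2, Dpysl3, Dpysl4 and Dpysl5) had strong boundaries on both sides, Crmp1 being the exception. Among 4 doublecortin genes none was within 10 kb, and Dclk1, Dclk2 and Dclk3 had strong boundaries on both sides, unlike Dcx. Of 8 beta tubulin genes none was within 10 kb, and Tubb5 (18.3 kb) and Tubb3 (18.6 kb) were the closest. Of 4 growth cone phosphoprotein genes 2 were within 10 kb. Marcks started inside a weak boundary (score 0.345) and Basp1 1.24 kb from a strong one (score 1.45), while Marcksl1 was 48.6 kb and Gap43 170.7 kb away. Atf4 started 9.82 kb from a strong boundary (score 1.07). Of 12 G gamma subunit genes Gngt2 was within 10 kb. In these other families, strong boundaries on both sides were found for 1 of 4 stathmin, 2 of 8 beta tubulin and 6 of 12 G gamma genes. They were found for 0 of 3 growth cone phosphoprotein genes with a domain, and for 1 of the 2 genes Atf4 and Atf5. Gng13, which mature olfactory neurons use, started 12.2 kb from a strong boundary (score 1.18) in a domain of 130 kb, and Gng8 28.2 kb from one in 180 kb.

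A list of proneural and differentiation factor genes and a list of mature olfactory neuron genes gave a frame for these counts. Of 14 proneural and differentiation factor genes, 6 had a TSS at most 10 kb from a boundary, against 16.4% of all protein-coding genes, the highest scores being those at Ebf1 (2.08), Ebf3 (1.84), Sox11 (1.84) and Gadd45g (1.18). Their median distance was 19.8 kb and their median domain 210 kb. Of 12 mature olfactory neuron genes Gnal did so (3.22 kb, score 1.57), 1 of 12 against the same 16.4%. The median distance of the 12 was 36.6 kb and their median domain 287.5 kb. The immature neuron markers, with 3 of 10 and a median of 35.8 kb, stood between these lists in the count at 10 kb. In the median distance they were close to the mature list. The lists were counted at 10 kb alone, and Rtp1 (10.9 kb) and Gng13 (12.2 kb) of the mature list fell just beyond it. The upper quartile of distance was 59.5 kb for the markers, above 51.5 kb for the differentiation factors and 53.7 kb for the mature list. The order therefore depends on the measure. The differences between lists were not tested, and the lists are small.

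**Figure D4:**
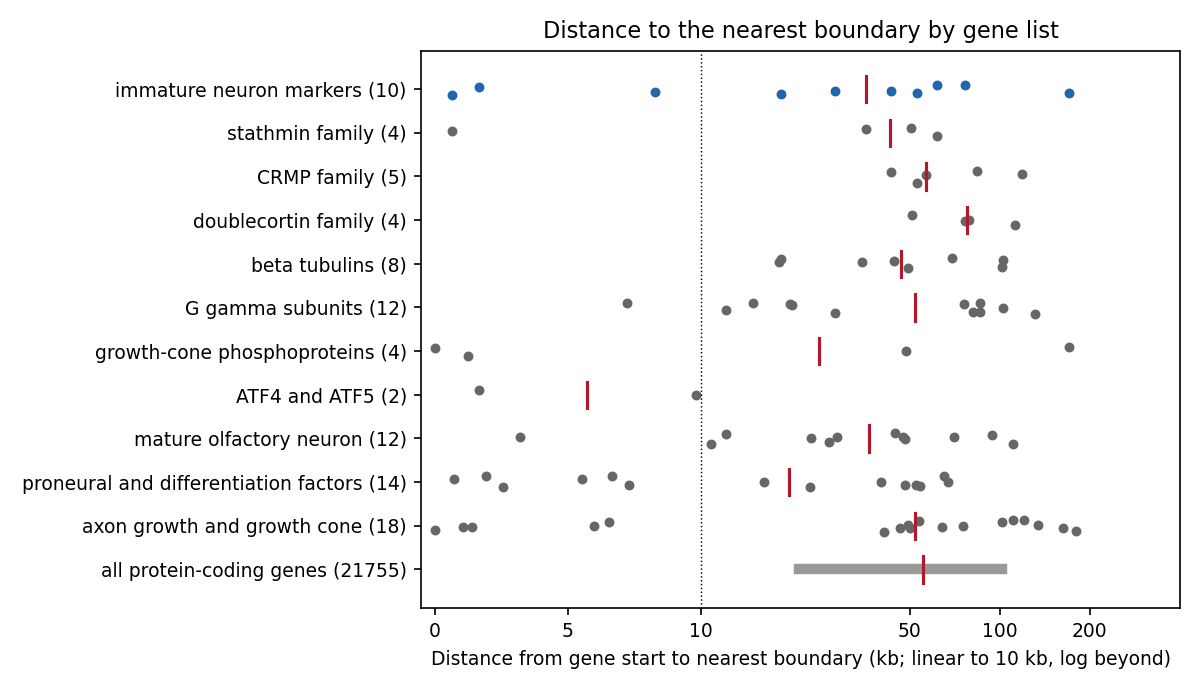
Distance from the TSS to the nearest boundary (x axis, kb, linear to 10 kb and log beyond) for each gene of the named lists, with the number of genes in parentheses. Red ticks are medians, the grey bar spans the quartiles of all protein-coding genes, and the dotted line marks 10 kb; Stmn2, Atf5 and Cd24a are the blue points to its left.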

How the data were processed

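In situ Hi-C was performed on 2 biological replicates of sorted precursors, per the labels. The authors combined their contact lists into a contact matrix on GRCm38 and called boundaries on it, per the series' design text. The caller's name is not given in the sources used here, nor are its settings. Each 5 kb interval of the deposited file has a class and a score, both the authors', which serve only to describe boundaries within this list. Depth is unknown, so no interval or floor is given.

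Genes came from GENCODE M21 and sequence from GRCm38.p6, the build of the list, and all intervals lay within its chromosomes. The domain of a gene ran between the inner edges of the nearest boundaries on either side of its TSS. It was undefined for 1104 genes starting inside an interval and 223 beyond the outermost boundary. Gene models sharing a name were counted separately. Genome windows with at least 50% assembled bases were used for motif shares. The code (Python 3.11.15, pandas 2.3.3, pysam 0.24.0) was tested on simulated data. All 10 members were named, with up to 4 neighbours each, the genes at their boundaries, and list genes near boundaries by score. Hey1 and 1700021F05Rik were named after their values were seen. No test was made, since a single pooled list has no replicates. The members and lists were chosen with earlier results of these data known.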

Additional observations from a re-analysis of the deposited data

How the results depend on the processing

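Of the 19 alternatives, 12 kept the value within 1.5 times of that reported. The number of markers near a boundary fell from 3 to 0 when only a TSS inside the interval counted (all genes 5.07%), and was 4 at 25 kb (27.8%) and 6 at 50 kb (46.3%). With strong boundaries alone it was 2 (10.6%), Atf5 being lost, and with the nearest of all transcript starts 4 (20.8%), Dpysl3 being added. The median domain grew from 215 to 687.5 kb, and the median number of protein-coding starts in it from 4 to 7, with strong boundaries alone, since fewer boundaries enter. Counting genes of every type gave a median of 8.5 starts. No value over all protein-coding genes is given for these settings. The comparison of domain length and gene content with all genes therefore holds for all boundaries and protein-coding starts alone. With a score limit of 0.4, added after the data were seen, 7 markers in place of 2 had both sides above it. In the bare interval, a shorter stretch, 5 in place of 9 had a CTCF match, and 10 had a looser pattern of the same length (all genes 79.7%). Merging boundaries within 50 kb could change nothing, because the closest intervals were 55.0 kb apart, and interval midpoints only add 5 kb to each domain. These settings are among the 12, so that count includes outcomes fixed in advance. No paired analysis was possible because the samples form a single group, and no replicate could be left out because the list was called on both combined. The unknown depth limits which weak boundaries could be found.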

Other observations

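Other genes of axon growth, not members of the marker list, lay near boundaries in 5 of 18 cases, against 16.4% of all protein-coding genes. The median distance of the 18 was 51.9 kb, close to the 55.3 kb of all protein-coding genes. The profilin gene Pfn2 started inside a strong boundary (score 0.536). The tau gene Mapt started 1.39 kb from a strong one (score 1.29), and Ncam1, which encodes a neural adhesion molecule, 1.08 kb from a weak one (score 0.303). Nrep (5.97 kb, score 0.250) and the microtubule-associated gene Map1b (6.54 kb, score 0.375) were near weak boundaries. Strong boundaries stood on both sides of 11 of the 17 with a domain, against 38.2% of all protein-coding genes with a domain, and the median domain was 295 kb. Among the 11, Tubb2a and Tubb2b share a domain of 260 kb and were counted separately. Ncam1, Nrep and Map1b were, like Gap43 and Stmn2, the only protein-coding gene starts of their domains, against 9.55% of protein-coding genes with a domain. Nrep was named after its values were seen, and these values were not tested.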
